A study of Aspergillus terreus with 6 samples.

Results

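The genes described here are the 161 expressed rows of the deposited tables whose identifier carries the prefix NewGene in place of the annotation-style prefix Aterreus0G. They were chosen by their measured level: a row counts as expressed when its mean CPM (counts scaled to a common library total) over all 6 libraries was 5 or more. The tables hold 11680 rows, of which 896 carry the NewGene prefix and 10784 the Aterreus0G prefix. The 161 expressed new genes are 18.0% of the NewGene rows, while 6967 annotated genes, 64.6% of the annotated rows, reached the same level. The files do not explain the prefix, and its reading as genes absent from the annotation rests on the prefix alone.

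The RNA came from mycelia of the wild-type Aspergillus terreus strain AT2022, cultured at 32 °C with shaking at 180 rpm and harvested on day 2. In the labels the 3 metal libraries received ZnSO4·2H2O at 0.25 g/L together with FeSO4·2H2O at 0.40 g/L. The 3 control libraries are labelled as untreated, with 0.15 g/L of the zinc salt and 0.16 g/L of the iron salt named. The labels leave unclear whether those smaller amounts were in the control medium, and a protocol shared by all 6 samples mentions added taurine. Whether the libraries of a group stem from separate cultures is not stated, so the spread behind each p-value is that among these libraries and may be technical only. Total counts were 33045516, 32607821 and 35124387 in metal libraries 1, 2 and 3, and 31981700, 29917757 and 25097838 in controls 1, 2 and 3. Over the 9698 genes tested, control 2 lay 0.58 to 0.64 log2 units (root mean square) from the metal libraries and 1.15 and 1.17 from controls 1 and 3, so results that depend on it are given with and without it.

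A. terreus is a filamentous fungus used to make itaconic acid, which it forms from the citric acid cycle intermediate cis-aconitate, and the series asks how zinc and iron salts bear on that fermentation. Aconitase, which makes cis-aconitate, carries an iron-sulphur cluster, and iron and zinc are cofactors of many other enzymes. A gene annotation is a set of predicted gene models, and RNA sequencing commonly finds transcribed stretches outside them. Such stretches can be missed protein-coding genes, long non-coding or antisense RNAs, extensions of a neighbouring gene, or genes that a strain has and the annotated strain lacks. None of the 11680 identifiers matched the 10551 genes of A. terreus strain NIH2624 in RefSeq (assembly ASM14961v1), and the files pair no identifier with a name, product, position or sequence. What the new genes encode, where they lie and whether they overlap annotated genes is therefore not analysed here, no sequence is shown, and the mycelial origin of the RNA could not be checked with marker genes.

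Most expressed new genes were of low abundance. Their median mean level was 13.1 CPM, against 37.2 CPM for the annotated genes that passed the same threshold. Of the 161, 105 (65.2%) had a mean under 20 CPM, a range that held 31.5% of the annotated genes. At the other end, 14 reached 100 CPM or more and 6 reached 200 CPM or more. The threshold cut through a continuous range. Just inside it, NewGene_241 and NewGene_944 had means of 5.22 and 5.01 CPM, and just outside it NewGene_659 and NewGene_560 had 4.98 and 4.97 CPM. Because abundance differed this much, annotated genes are compared below within 6 ranges of mean CPM (limits 5, 10, 20, 50, 100 and 200), and a value called abundance-weighted is the mean of the annotated values over those ranges, weighted by the number of new genes in each.

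A single gene held over 36% of all counts from expressed new genes in 4 of the 6 libraries. NewGene_402 was at 2441, 6765 and 4085 CPM in metal libraries 1, 2 and 3, against 2068, 4495 and 4355 CPM in controls 1, 2 and 3. The groups overlapped, with the highest value in metal 2 and the lowest in control 1. Its mean of 4035 CPM ranked 21 of all 11680 rows, and on the length-scaled FPKM scale (fragments scaled by gene length and library depth) its mean of 5292 ranked 13. It took 27.7%, 47.3% and 36.2% of the counts of expressed new genes in metal libraries 1, 2 and 3 and 22.1%, 39.1% and 37.6% in controls 1, 2 and 3. It was the only new gene among the 100 rows of highest mean FPKM.

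The next 3 genes by mean CPM were of the same order as each other. NewGene_829 was at 850, 754 and 820 CPM in the metal libraries 1, 2 and 3, against 976, 751 and 1649 CPM in controls 1, 2 and 3, so that control 3 stood above the rest. NewGene_425 was at 624, 1082 and 747 CPM in the metal libraries, against 492, 975 and 937 CPM in the controls. NewGene_662 was at 608, 1068 and 722 CPM in the metal libraries, against 332, 908 and 688 CPM in the controls. In both of these genes, as in NewGene_402, metal 2 was highest, control 1 lowest and the groups overlapped. None of these 4 genes passed edgeR's quasi-likelihood test of metal against control, whose log2 fold changes were 0.30 ± 0.46, -0.43 ± 0.30, 0.05 ± 0.35 and 0.33 ± 0.41 (SE), with Benjamini-Hochberg adjusted p-values of 0.80, 0.62, 0.96 and 0.76, for NewGene_402, NewGene_829, NewGene_425 and NewGene_662. The 4 together made up 58.6% of the summed mean CPM of the expressed new genes.

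**Figure D1:**
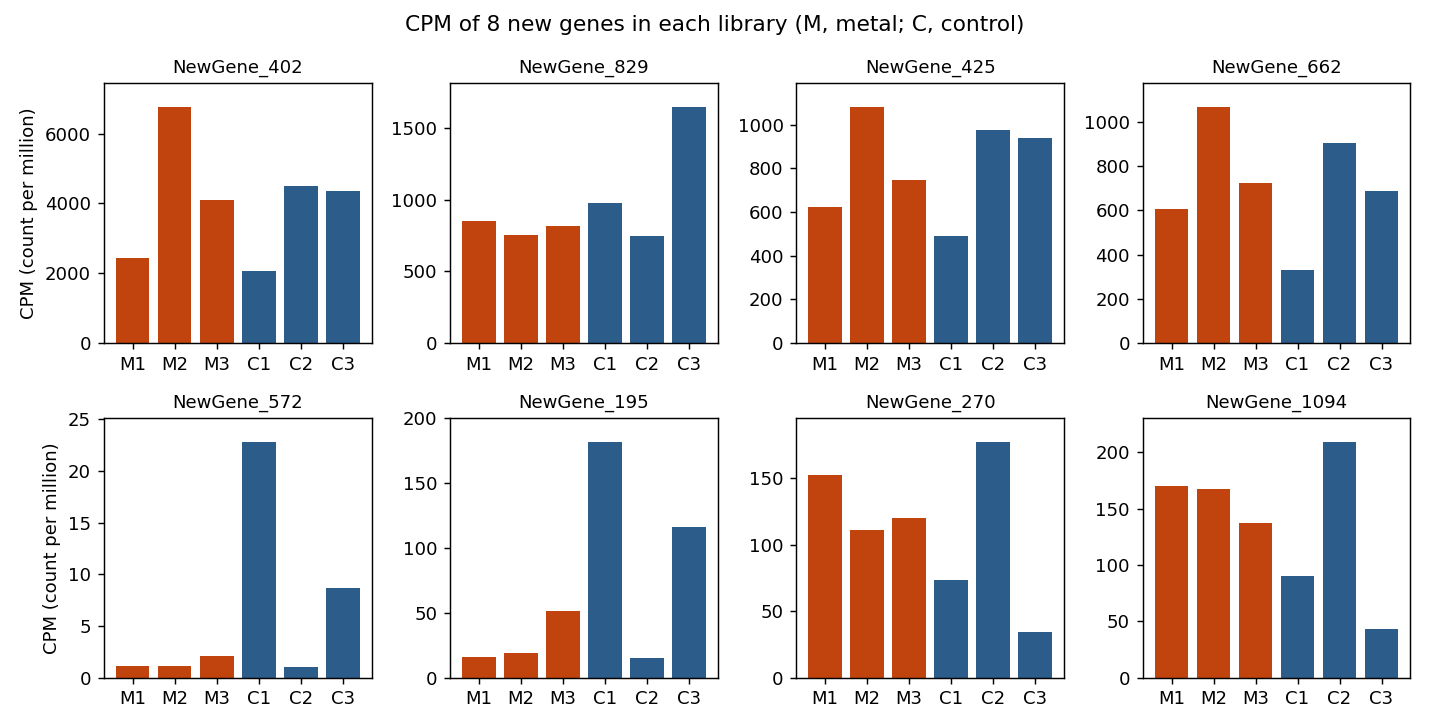
Bars show CPM in each library for the 4 most abundant new genes (upper row) and the 4 with the largest differences between controls 1 and 3 and the other 4 libraries (lower row), each panel with its own linear axis from 0; metal libraries are orange and controls blue. In NewGene_402 the metal and control bars overlap, while in NewGene_572 only controls 1 and 3, at 22.8 and 8.69 CPM, stand above 2.08 CPM.

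Summed over the 161 genes, expressed new genes held 0.882%, 1.432% and 1.127% of all counts in metal libraries 1, 2 and 3, and 0.937%, 1.151% and 1.159% in controls 1, 2 and 3. The group means were 1.15% ± 0.28 in the metal libraries and 1.08% ± 0.13 in the controls (SD, n = 3 each), a difference within the spread. Without NewGene_402 the shares were 0.638%, 0.755% and 0.719% in the metal libraries and 0.731%, 0.701% and 0.724% in the controls, so most of the variation between libraries in this share lay in that gene.

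Every expressed new gene was detected in every library, the lowest count being 30. Being above the threshold in each library was less uniform: 115 of the 161 (71.4%) had 5 CPM or more in all 6 libraries, against an abundance-weighted 75.8% of annotated genes. The other 46 passed on their mean, 20 of them with 5 libraries at that level, 11 with 4, 8 with 3 and 7 with 2. The number of the 161 at 5 CPM or more was 148, 146 and 148 in metal libraries 1, 2 and 3, and 154, 144 and 132 in controls 1, 2 and 3, so control 1 had the most and control 3 the fewest. Over all 896 NewGene rows, 684, 760 and 777 had at least 1 count in metal libraries 1, 2 and 3, and 752, 696 and 686 in controls 1, 2 and 3; 510 of these rows had a mean under 1 CPM.

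New and annotated genes differed in how controls 1 and 3 stood to each other. Over all genes tested these 2 controls were 0.77 log2 units apart, nearer to each other than to any other library, yet new genes were mostly higher in control 1. The median CPM of the 161 was 16.4 in control 1 and 10.2 in control 3, with 12.9, 12.8 and 12.5 in metal libraries 1, 2 and 3 and 11.9 in control 2. Control 1 exceeded control 3 in 127 of the 161 (78.9%), against an abundance-weighted 44.4% of annotated genes. The median log2 difference, control 1 minus control 3 on the log2(CPM + 1) scale, was 0.59 for new genes and -0.07 for annotated genes, abundance-weighted. At least 2-fold differences ran the same way: 40 new genes (24.8%) were that much higher in control 1 and 3 (1.86%) that much lower, against an abundance-weighted 4.14% and 2.68% of annotated genes. Each side is 1 library, so this is a description of those 2 libraries with no replicate check, and it was examined after the values were seen.

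This shift was present in each abundance range up to 200 CPM and ran the other way in the 6 genes at 200 CPM or more. Control 1 was higher in 54 of 64 new genes at 5 to 10 CPM, 34 of 41 at 10 to 20, 23 of 31 at 20 to 50, 9 of 11 at 50 to 100 and 6 of 8 at 100 to 200 CPM. At 200 CPM or more it was higher in 1 of 6, with a median log2 difference of -0.84, against -0.08 in annotated genes of that range. In annotated genes, control 1 was higher in 463 of 926 at 5 to 10 CPM and in 37.7% to 44.4% in each of the other ranges. New genes under the threshold showed it too, with control 1 higher in 185 of 225 NewGene rows (82.2%) at a mean of 1 to 5 CPM, against 53.8% of 1421 annotated rows there. By implied length, defined below, control 1 was higher in 31 of 47 new genes under 1000 bases (66.0%). It was higher in 49 of 57 at 1000 to 2000 (86.0%) and 47 of 57 at 2000 bases or more (82.5%). The shares of annotated genes in these 3 classes, not weighted for abundance, were 40.9%, 39.6% and 44.4%. Control 3 was the shallowest library and control 1 was not the deepest; the part of depth was not tested.

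The order of the libraries within a gene shows the same. Of the 161 new genes, 66 (41.0%) were highest in control 1, against an abundance-weighted 24.8% of annotated genes. Control 3 was the lowest library for 79 new genes (49.1%), against 17.8% of annotated genes. Annotated genes were most often highest in control 3, in an abundance-weighted 32.2%, compared with 18 new genes (11.2%). The gap in absolute size pointed the same way, with a median of 0.67 log2 units between controls 1 and 3 in new genes, against 0.34 in annotated genes. Between metal libraries the 2 kinds were closer, with median absolute gaps of 0.18 to 0.27 in new genes and 0.18 to 0.22 in annotated genes.

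**Figure D2:**
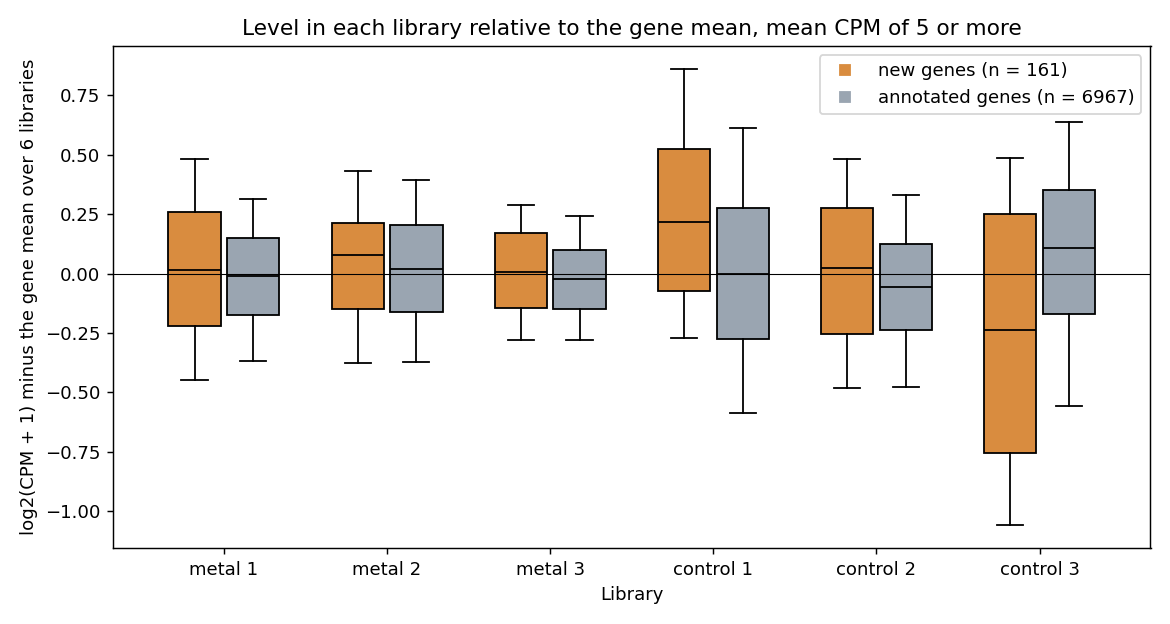
Boxes give, for each library, the level of a gene minus its mean over the 6 libraries on the log2(CPM + 1) scale, for the 161 new genes and for all 6967 annotated genes unweighted, with the line at the median, the box at the quartiles and whiskers at percentiles 10 and 90. The new-gene median is 0.22 in control 1 and -0.24 in control 3, while the metal medians lie between 0.01 and 0.08.

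Distances between libraries were also taken over the new genes alone. Over the 161, controls 1 and 3 were 0.91 log2 units apart, against 0.72 to 0.95 between control 1 and the other 4 libraries and 0.99 to 1.16 between control 3 and those 4, so that control 1 remained the nearest library to control 3 but control 3 was not the nearest to control 1. Over annotated genes of mean CPM 5 or more, controls 1 and 3 were 0.58 apart, against 0.85 to 0.98 between control 1 and the other 4 and 0.85 to 0.97 between control 3 and the other 4. Control 2 was 0.39 to 0.51 from the metal libraries over the new genes and 0.37 to 0.44 over the annotated ones.

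With libraries grouped as labelled, no expressed new gene passed the test of metal against control. All 161 were among the 9698 genes tested with edgeR, and 0 rose and 0 fell at an adjusted p under 0.05, where 0.0% of all tested genes were called higher and 0.0% lower. The lowest adjusted p among new genes was 0.57. Before adjustment, 3 new genes had a p under 0.05 with a higher level in the metal libraries and 7 with a lower one, against 180 and 655 of all tested genes. The median log2 fold change was 0.05 over the new genes, or -0.09 without control 3, and -0.01 over all tested genes. All 3 metal libraries lay above all 3 controls in 6 new genes and below them in 6, or 3.73% each way, where 6.1% and 6.59% of all rows at 5 CPM or more did. DESeq2 called 0 new genes higher and 1 lower, where it called 0.0956% of all genes higher and 1.3% lower. Before adjustment, 5 new genes on the higher side and 9 on the lower side had a DESeq2 p under 0.05, against 285 and 851 of the 11340 genes with a p.

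Without control 2, 9 new genes rose and 11 fell at an edgeR adjusted p under 0.05, with the metal libraries set against controls 1 and 3 alone. The share of all tested genes called there was 6.56% rising and 10.2% falling. The new genes' shares of 5.59% and 6.83% were below the abundance-weighted 6.97% and 11.7% of annotated genes; this difference was not tested. In all 20 the levels of controls 1 and 3 also lay wholly to 1 side of control 2 and the metal libraries. The calls rest on a difference from the metal libraries, so mainly the place of control 2 was left free. The share among all called genes was not computed. Control 2 was nearer to the metal libraries than to controls 1 and 3 in 78.9% of the 161 new genes and 79.1% of annotated genes. DESeq2 without control 2 called 21 of the 161 that rose and 14 that fell, against 10.9% and 12.0% of all genes. With DESeq2 the new genes' share was thus above that of all genes on the rising side and below it on the falling side. With edgeR it was below on both sides. These differences were not tested. The removal of control 2 was singled out for giving calls, which the adjustment for multiple testing does not cover.

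Controls 1 and 3 were also set against the other 4 libraries as a description, since this division of the libraries was read from these data. Both controls lay above the other 4 libraries in 35 new genes (21.7%) and below them in 36 (22.4%), and overlapped them in 90. Over all rows at 5 CPM or more the shares were 29.3% above and 20.6% below, and abundance-weighted annotated genes had 32.4% above and 17.2% below. With CPM by column sums, new genes thus were split about evenly where annotated genes were more often above. With totals scaled by edgeR's TMM factors, 31 new genes lay above and 41 below, and annotated genes were not counted on that scale. The 2 controls leaned opposite ways: control 3 alone lay above in 42 and below in 80, and control 1 alone above in 77 and below in 46. A single library lies outside 4 others more easily than 2 libraries do, so these counts are not comparable with 35 and 36. The shares among annotated genes were not computed for a single control. The median log2 difference, controls 1 and 3 minus the other 4, was -0.04 in new genes and 0.12 in annotated genes, abundance-weighted, and the median absolute difference was 0.50 against 0.39. A difference of at least 2-fold with no overlap was seen in 9 new genes above (5.59%) and 10 below (6.21%), where 7.31% and 4.56% of all rows at 5 CPM or more and an abundance-weighted 8.89% and 4.29% of annotated genes did the same.

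**Figure D3:**
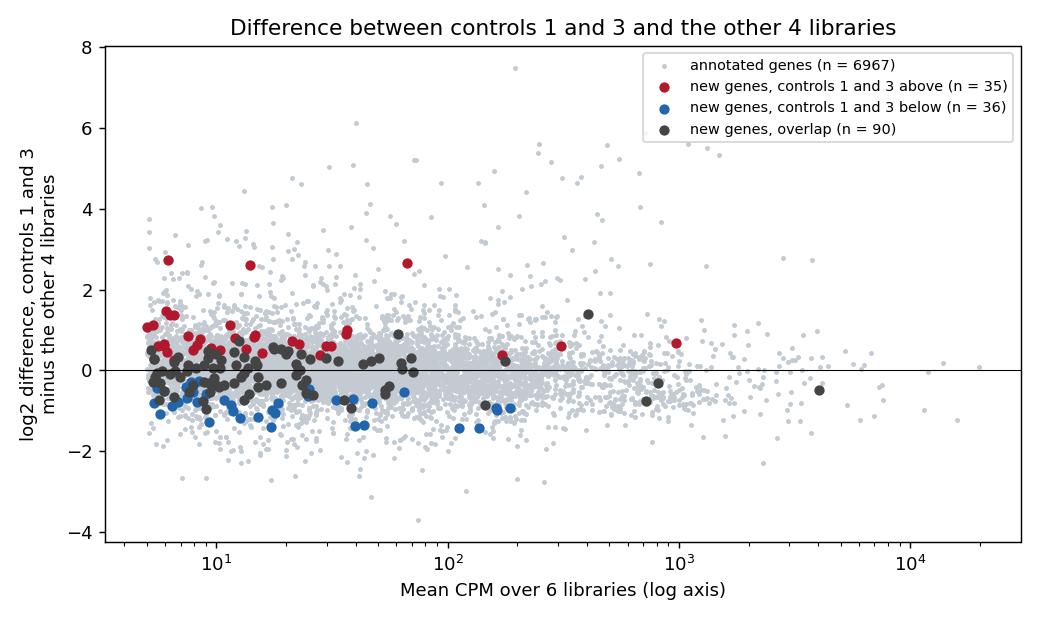
Each point is a gene, with mean CPM on a log axis and the log2 difference of controls 1 and 3 minus the other 4 libraries on the vertical axis; annotated genes are grey and new genes are coloured by whether the 2 sets of libraries overlap. The 35 new genes above have means of 5.01 to 967 CPM and the 36 below have means of 5.39 to 186 CPM, and the new-gene differences run up to 2.72.

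The largest differences were on the side above. NewGene_572 was at 22.8 and 8.69 CPM in controls 1 and 3, against 1.00, 1.15, 1.13 and 2.08 CPM in control 2 and metal libraries 1, 2 and 3. All its levels outside controls 1 and 3 were under the 5 CPM threshold, so it entered the set only through those 2 controls. Its inclusion and its difference thus rest on the same libraries. The log2 difference was 2.72, and the 2 controls themselves differed 2.63-fold. With labelled groups it averaged 1.45 ± 0.54 CPM in the metal libraries and 10.8 ± 11.1 CPM in the controls (SD, n = 3 each), with a log2 fold change of -2.83 ± 0.94 (SE) and an edgeR adjusted p of 0.57. It was the new gene that DESeq2 called lower (adjusted p = 0.0471). Without control 2 the log2 fold change was -3.36 ± 0.47 (SE, edgeR adjusted p = 0.00424), and without control 1 it was -1.63 (edgeR adjusted p = 0.86).

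NewGene_195 was at 182 and 117 CPM in controls 1 and 3, against 15.3, 16.1, 18.7 and 51.0 CPM in control 2 and metal libraries 1, 2 and 3. Metal 3 lay between the 2 sets, and the gene had the largest spread of all 161, an SD of 1.52 on the log2(CPM + 1) scale over the 6 libraries. Its log2 fold change was -1.80 ± 0.82 (SE, edgeR adjusted p = 0.57) with labelled groups and -2.30 ± 0.48 (SE, edgeR adjusted p = 0.0187) without control 2, and -1.10 (edgeR adjusted p = 0.86) without control 1.

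On the side below, the differences were smaller. NewGene_270 was at 73.5 and 34.7 CPM in controls 1 and 3, against 177, 152, 111 and 120 CPM in control 2 and metal libraries 1, 2 and 3. NewGene_1094 was higher in each library, at 90.5 and 42.9 CPM in controls 1 and 3. It was at 209, 170, 168 and 137 CPM in control 2 and metal libraries 1, 2 and 3. The lowest metal library was metal 2 for NewGene_270 and metal 3 for NewGene_1094. In both, control 2 was highest, control 3 was lowest, and control 1 was 2.1 times control 3. Their log2 differences were both -1.43. The edgeR log2 fold changes of metal against control were 0.42 ± 0.55 and 0.47 ± 0.53 (SE), with adjusted p-values of 0.77 and 0.74, and without control 2 they were 1.31 ± 0.33 and 1.32 ± 0.31 (SE), with adjusted p-values of 0.0333 and 0.0292. With control 3 left out in place of control 2 the log2 fold changes were near 0, at 0.0037 and 0.055, and with control 1 left out they were 0.24 and 0.30. These 4 genes were picked for their difference in these libraries, so their passing without control 2 is not independent evidence.

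The steadiest new gene stood at the other end. NewGene_413 was at 72.4, 73.1 and 68.8 CPM in metal libraries 1, 2 and 3, against 67.3, 71.7 and 72.2 CPM in controls 1, 2 and 3, an SD of 0.047 on the log2(CPM + 1) scale. Its group means were 71.4 ± 2.33 CPM in the metal libraries and 70.4 ± 2.68 CPM in the controls (SD, n = 3 each). As a whole, new genes varied more than annotated genes of like abundance, with a median SD over all 6 libraries of 0.41 against 0.31. Over the 3 metal libraries it was 0.21 against 0.17. At 5 to 10 CPM, which held 64 of the new genes, the gap was smaller over all 6 libraries, at 0.380 against 0.347. Over the metal libraries it was absent there, at 0.187 against 0.192.

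An implied length was computed for each gene as the count divided by FPKM and by the library total, with 1 factor per library removed. It equals the length the authors divided by, to the extent that FPKM was count over length and depth. The median implied length was 1568 bases for the new genes, with quartiles of 953 and 2445 bases, against an abundance-weighted 1783 bases for annotated genes. At 20 to 50 CPM alone the new genes had the longer median, 1960 against 1889 bases. Under 1000 bases were 47 new genes (29.2%) and 17.3% of annotated genes, and over 3000 bases were 25 new genes (15.5%) and 21.9% of annotated genes. These annotated shares were not weighted for abundance. The shortest, NewGene_1018, came to 319 bases, with 6.51, 7.02 and 7.12 CPM in the metal libraries and 6.44, 5.15 and 5.58 CPM in the controls. The longest, NewGene_275, came to 7915 bases, with 64.9, 53.8 and 51.1 CPM in the metal libraries and 65.1, 64.8 and 22.8 CPM in the controls, where control 3 stood below the others. NewGene_402 came to 748 bases, and NewGene_829, NewGene_425 and NewGene_662 to 1397, 775 and 633 bases.

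Across the 161 genes, which are not independent replicates, the Spearman correlation of implied length with log2 mean CPM was -0.005, and with the log2 difference between controls 1 and 3 and the other 4 libraries it was 0.017. Across 6967 annotated genes the correlation of implied length with that difference was -0.16. Of the 57 new genes between 1000 and 2000 bases, 12 had controls 1 and 3 above the other 4 libraries and 20 had them below, or 21.1% and 35.1%, against 32.1% and 18.4% of annotated genes of that length, and their median log2 difference was -0.39. The 47 shorter new genes had 10 above and 6 below (21.3% and 12.8%, against 37.3% and 13.5% of annotated genes). The 57 longer ones had 13 above and 10 below (22.8% and 17.5%, against 24.1% and 25.2% of annotated genes). The annotated genes in these length classes were not weighted for abundance.

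The implied length of a new gene often differed between libraries, which was rare in annotated genes. It was constant within 1% over the 6 libraries in 76 of the 161 new genes (47.2%), against 98.8% of the 6967 annotated genes. It varied by over 5% in 41 new genes (25.5%) and in 8 of 6967 annotated genes (0.115%, or 0.265% abundance-weighted), and by over 20% in 11 new genes (6.83%) and 2 annotated ones. Among genes with 200 or more counts in every library, it varied by over 5% in 18 of 81 new genes and in 0 of 5959 annotated genes. In 7 of the 41 genes the implied lengths in controls 1 and 3 lay wholly to 1 side of those in the other 4 libraries. The share among other genes was not computed, so whether the lengths followed the division of the libraries was not tested. For the 41 genes, FPKM and CPM give different ratios between libraries.

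**Figure D4:**
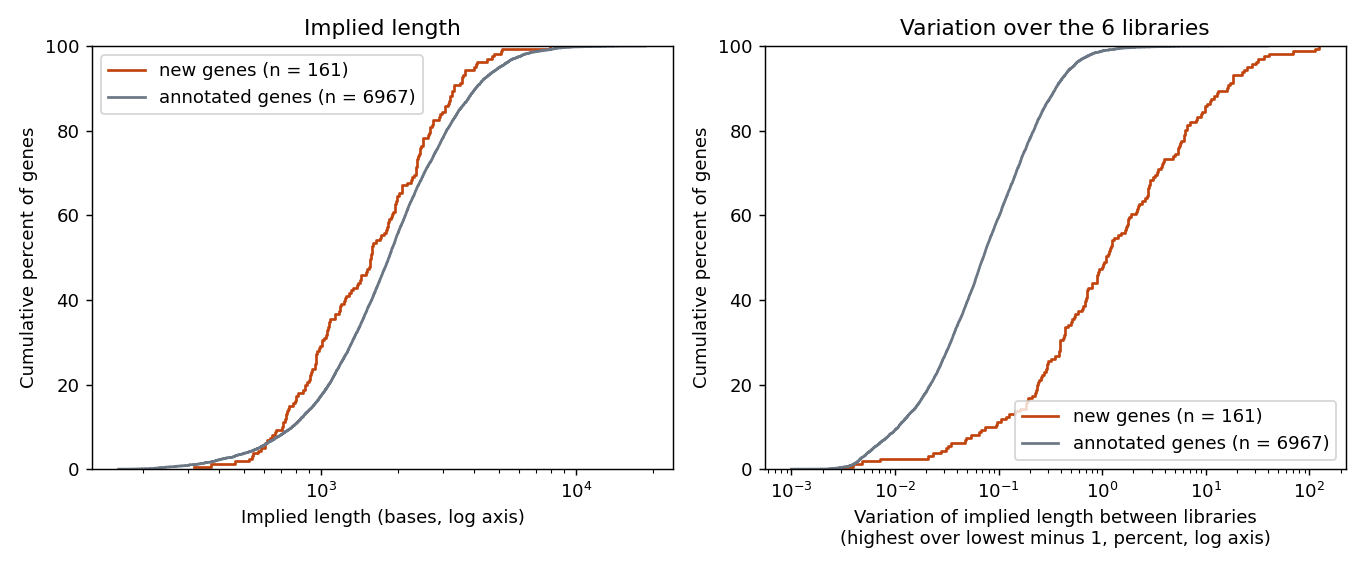
Cumulative percent of genes by implied length in bases (left, log axis) and by the variation of implied length over the 6 libraries, the highest over the lowest minus 1 in percent (right, log axis), for 161 new and 6967 annotated genes. The curves on the right lie far apart, with 47.2% of new genes and 98.8% of annotated genes at 1% or less.

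The widest case, singled out after its values were seen, was NewGene_862. Its implied length was 2435, 1095 and 2424 bases in metal libraries 1, 2 and 3, and 2453, 1096 and 2367 bases in controls 1, 2 and 3. The lengths fell at 2 levels, the shorter one in metal 2 and control 2. Its CPM was 26.0, 9.72 and 29.5 in the metal libraries and 32.5, 8.12 and 13.7 in the controls, lowest in the same 2 libraries. Its FPKM was 10.7, 8.49 and 11.6 in the metal libraries and 13.3, 7.47 and 5.78 in the controls, so that on the length-scaled level control 3 became the lowest.

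**Figure D5:**
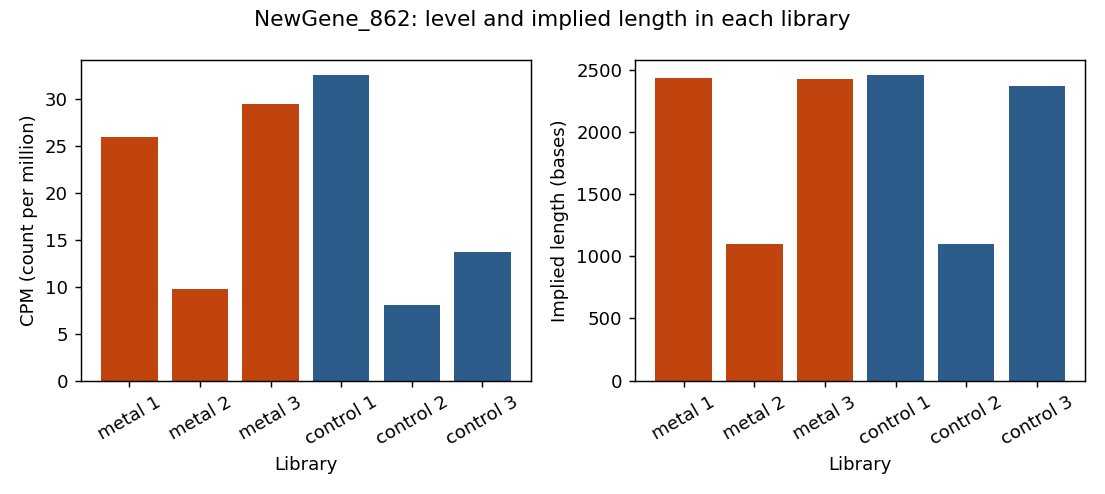
Bars show the CPM (left) and the implied length in bases (right) of NewGene_862 in each library, metal in orange and control in blue, both axes from 0. Metal 2 and control 2 stand at 1095 and 1096 bases, and the other 4 libraries between 2367 and 2453 bases.

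The identifier numbers of the 896 NewGene rows ran from 1 to 1121, leaving 225 numbers not in use here. Among the 161 expressed genes, 29 pairs had consecutive numbers. The log2 difference between controls 1 and 3 and the other 4 libraries had the same sign in 19 of the 29 pairs, with a Pearson correlation of 0.50 and a Spearman correlation of 0.53 over pairs, some of which share a gene and all of which share the same libraries. These values were not computed for other pairs of genes, so whether consecutive numbers go with a like difference was not tested. The files do not say that the numbers follow the genome.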

How the data were processed

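For 6 libraries the authors deposited gene counts, as whole numbers, and FPKM values; per the submitters' processing notes, TopHat2 and DESeq were used, with roles, counting program, genome build, strand setting and the making of new genes not given in the sources used here. Per the labels' protocols, total RNA was extracted with TRIzol and the library kit was NEBNext Ultra RNA. The members, ranges and tests were chosen with earlier results of these data known. Groups were taken from sample titles. Counts were tested on the whole table with edgeR 4.0.16 (R 4.3.3; filterByExpr, TMM, robust quasi-likelihood F test, no block), adjusted by Benjamini-Hochberg over all tested genes at 0.05; DESeq2 1.42.0, limma 3.58.1 and other settings were alternatives. The procedure was tested on simulated counts in which control 2 did not lie near the metal libraries. That simulation therefore does not show what could be detected in these libraries. CPM used the column sums. Distances used TMM-scaled log2 CPM with a prior count of 2. Correlations of same-numbered libraries' deviations from group means were 0.07, 0.16 and 0.17, and those of differently numbered libraries ran from -0.29 to 0.23. The labels give only the shared numbers, so equal numbers were not treated as pairs. No 2 libraries were copies: the mean chi-square per gene was 66.7 or more. Genes named were the 4 most abundant, the 2 on each side of the threshold, the shortest and longest, the 2 of largest difference in each direction without overlap, and those of largest and smallest spread. Antisense or overlapping transcripts could not be told apart. Library depth covers 25097838 to 35124387 counts.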

Additional observations from a re-analysis of the deposited data

How the results depend on the processing

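The count of new genes called by edgeR with labelled groups was 0 higher and 0 lower under RLE scaling, total-count scaling, no filter and a replicate block, as it was under limma-voom and limma on log2(FPKM + 1). DESeq2 called 1 lower; the cause was not tested. Leaving out 1 library gave 0 to 9 higher and 0 to 11 lower, above 0 only without control 2. DESeq2 without control 2, added after seeing the data, called 21 higher and 14 lower. The replicate block (pairing by number) changed no call. The median log2 fold change of the new genes ran from -0.09 (without control 3) to 0.16 with single libraries left out. Of the 8 genes followed through each alternative (the 4 most abundant and the 4 of largest difference), 2 that were never called changed sign: with single libraries left out, NewGene_425 ran from -0.20 (without control 1; -0.18 without metal 2) to 0.28, and NewGene_402 from -0.11 (without metal 2) to 0.60. With control 1 left out, control 3 lay above the other 4 libraries in 42 new genes and below them in 80; with control 3 left out, control 1 lay above them in 77 and below in 46. Over all single libraries left out the counts ran from 37 to 77 above and 36 to 80 below. The highest counts are those with only 1 of controls 1 and 3 left, where lack of overlap is easier to meet. Annotated genes were not counted in this way. The median difference ran from -0.27 without control 1 to 0.18 without control 3, and was -0.12 with TMM scaling. A threshold of 10 CPM left 97 genes, and genes with 200 or more counts throughout had a median implied length of 1592 bases. Without the most abundant gene the share of counts was 0.704% in metal and 0.718% in control libraries. The median log2 difference of control 1 minus control 3 was 0.62 with TMM scaling, 0.64 with a pseudocount of 0.1, 0.55 on the log2(FPKM + 1) scale, 0.55 for genes with 200 or more counts throughout and 0.46 for genes of constant implied length; control 1 was higher in 70.4% of the well-counted genes.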
